A study of Rattus norvegicus with 6 samples.

Results

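The distal convoluted tubule and the connecting tubule are the segments of the kidney in which the final excretion of calcium and magnesium is set, under the control of parathyroid hormone and vitamin D. Calcium enters their cells through an apical channel, is carried by calcium-binding proteins and leaves by an exchanger and a pump on the blood side, while magnesium enters through a separate channel whose work depends on the sodium chloride cotransporter beside it. The kidney also makes and destroys calcitriol, the active form of vitamin D, by a pair of opposing cytochrome P450 enzymes that are best known from the proximal tubule, so that the word distal holds for only some of the 10 genes described here. These were Slc12a3, Trpm6, Trpv5, Calb1, Pvalb, Slc8a1, Kl, Vdr, Cyp27b1 and Cyp24a1, chosen by name, and every array probe whose accession maps to one of them was taken: 20 of 61453 probes analysed, for 9 of the 10 genes. No probe was matched to Trpm6, the apical magnesium channel, which has no value here.

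The tissue was kidney cortex from 6 male Sprague-Dawley rats, acquired at an age of 5 weeks. Corn oil alone was given to 3 of them (control), and 1,2-dibromoethane, a halogenated compound once used as a fumigant, to the other 3 at 75 mg/kg/day over 4 weeks (treated). Each rat gave 1 single-colour array, and with 3 arrays on each side precision is limited by their number. Levels are log2 signals relative to the 75th percentile of the same array, so that 0 stands for that percentile; they compare arrays for 1 probe, and the levels of different probes are not compared with each other.

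Between 59.2% and 67.8% of the probes of an array were well above background, and pairs of arrays correlated at r = 0.988 to 0.993 across probes, which are not independent replicates. Markers of the proximal tubule, thick ascending limb, principal and intercalated cells, podocytes and endothelium were well above background on every array, whereas of the adrenal genes Cyp11b1 and Cyp11b2 were so on none, Star on 1 and Cyp17a1 on all 6. Of the distal markers, Slc12a3, Trpv5 and Calb1 were well above background on all 6 arrays and Pvalb on none. Liver transcripts (Alb, Apoa1, Ttr, Serpina1, Apoh, Fgb, Tf and Ahsg) had a positive treated-minus-control difference for 8 of 8 genes; their summed signal, in multiples of the 75th percentile, was 10.4 to 24.5 in controls and 57.5, 26.8 and 22.6 in treated replicates 1, 2 and 3. The summed signal was lower in all treated rats than in any control for macrophage markers (11.4 to 13.3 against 15.7 to 17.8), blood markers (131.1 to 156.8 against 184.2 to 214.5), perirenal fat markers (0.893 to 1.201 against 1.227 to 1.372) and the proximal tubule markers (865.6 to 916.8 against 943.9 to 967.3). Such sums are set mostly by the brightest probes of a list. The proximal tubule genes differed by -0.28 (Slc22a6), -0.09 (Lrp2), -0.08 (Slc34a1), -0.0002 (Slc5a2) and 0.12 (Cubn) in log2. The macrophage genes differed by -0.54 (C1qa), -0.48 (C1qb) and -0.03 (Cd68), and Cd163 was well above background on no array. Among all single probes tested, the groups did not overlap for 19.3%.

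None of the member genes was called as changed by 1,2-dibromoethane. Of the 20 probes, 19 for 8 genes were tested, and 0 of these 19 passed in limma at an adjusted p of 0.05, 0 at an unadjusted p under 0.05. Over all 37274 probes tested, 10 (0.0268%) passed the adjusted threshold, 8 raised (0.0215%) and 2 lowered (0.00537%) (8 and 4 with quantile normalization, 6 and 1 with median centring, 6 and 0 with normexp background correction), and 11.3% had an unadjusted p under 0.05. That count of 10 was 0 with slide as a fixed block or with the replicate block, 2 with scan day as a block, and, when 1 array was left out, 13 without control replicate 3 and 1 to 6 without any of the others. The difference between the groups was under 0.3 on the log2 scale for 18 of the 19 probes. The exception was Cyp27b1, the enzyme that makes calcitriol, at 0.90, with the highest level in a single treated rat. The median absolute difference of the 19 probes was 0.13, beside 0.12 over all probes tested, and 7 of the 19 were positive, where 46.8% of all probes were. Probes of 1 gene are not independent in that count: Slc8a1 alone had 6 of the 19, of which 5 were negative. The groups did not overlap for 1 of the 19 probes, that of Cyp27b1; over all probes they did not overlap for 19.3%. A p above the threshold does not show that a gene stayed the same, and the 95% interval of the log2 difference lay within 0.5 either way for 7 probes, within 1 for 16, and reached past 1 for the 3 probes of Cyp27b1 and Cyp24a1.

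**Figure D1:**
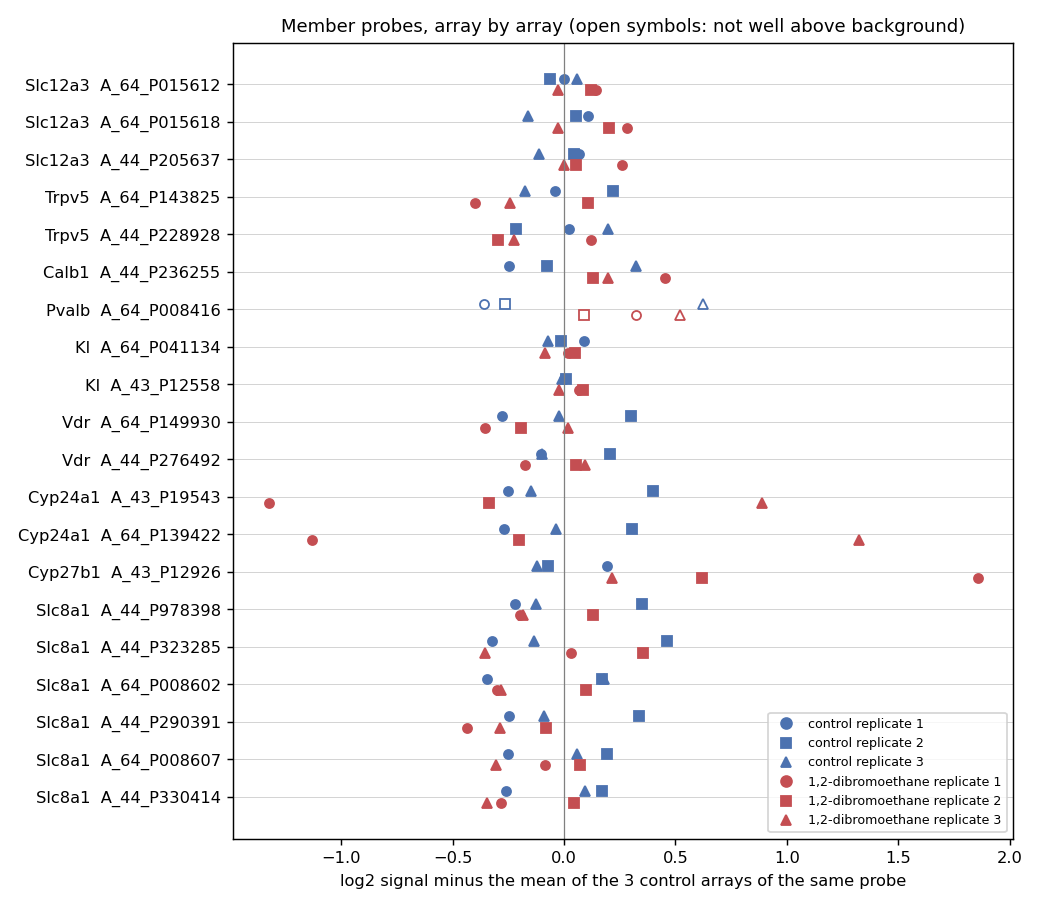
Log2 signal of each of the 20 member probes on each of the 6 arrays, with the mean of the 3 control arrays of the same probe set to 0 (x axis); blue symbols are control rats and red symbols treated rats, shaped by replicate number. Most probes lie within 0.5 of 0 in both groups, and the wide scatter is in the red symbols of Cyp24a1 (from -1.33 to 1.33) and Cyp27b1 (up to 1.86).

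**Figure D2:**
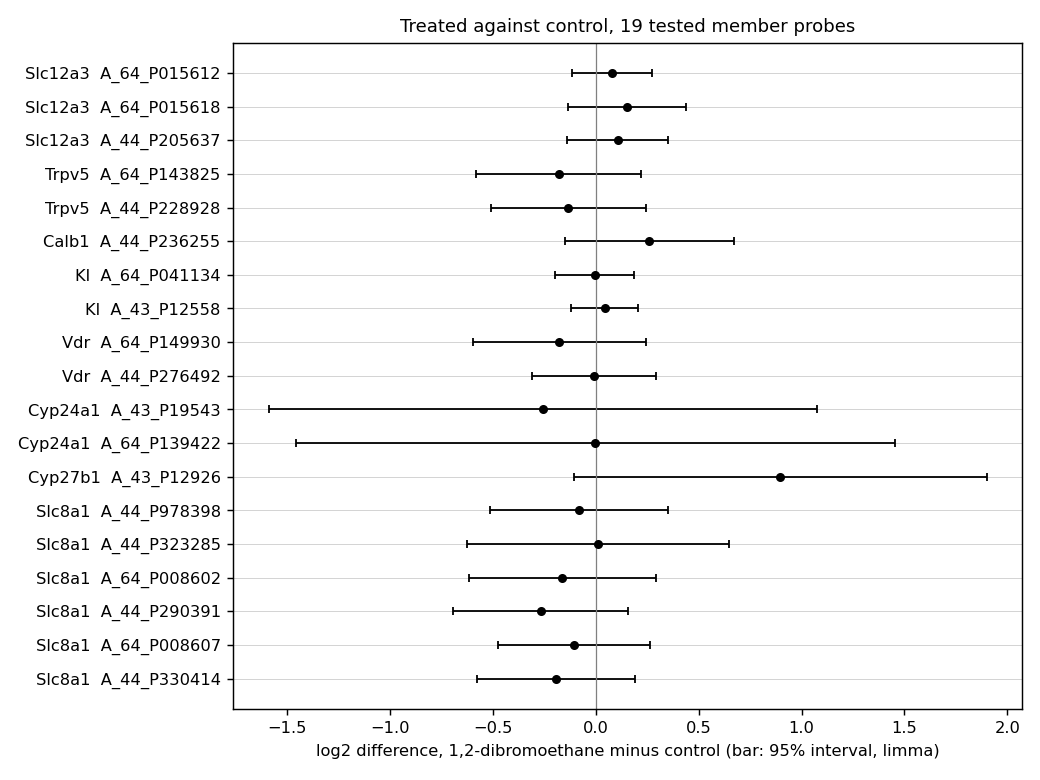
Difference between treated and control rats on the log2 scale for the 19 tested probes (points) with the 95% interval of the limma fit (bars). Every interval crosses 0; the widest are those of Cyp24a1 and Cyp27b1 and the narrowest those of Kl and Slc12a3.

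Slc12a3 encodes the thiazide-sensitive sodium chloride cotransporter that defines the distal convoluted tubule. Its probe A_64_P015612 stood at 4.38, 4.31 and 4.43 in control replicates 1 to 3 and at 4.52, 4.49 and 4.35 in treated replicates 1 to 3. Treated replicates 1 and 2 lay above all controls and treated replicate 3 among them. The group means were 4.37 ± 0.06 (SD, n = 3) and 4.45 ± 0.09 (SD, n = 3), and the difference was 0.08 (SE 0.08, 95% interval -0.12 to 0.28, limma adjusted p = 0.734). The other probes, A_64_P015618 and A_44_P205637, gave 0.15 (SE 0.12) and 0.11 (SE 0.10), again with treated replicate 1 highest and overlapping groups. With a fixed slide effect the 3 differences were 0.12, 0.26 and 0.16. Without a slide effect, the 95% intervals of the 3 probes reached at most 0.44 upward and 0.14 downward on the log2 scale. Probe A_64_P015618 differed by 0.12 within slide 1 and by 0.45 within slide 2. Probe A_64_P015612 differed by 0.15 and 0.08 within these slides, and A_44_P205637 by -0.0024 and 0.38. In bulk cortex, fewer cells of a segment and less RNA per cell cannot be told apart.

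The promoter of Slc12a3, the transporter that defines the segment, and that of Cyp27b1, the member with the largest group difference, are shown for the 250 bases before the transcript start that the RefSeq promoter table of GRCr8 gives (Slc12a3 on the minus strand at chr19:10675051-10675300 and Cyp27b1 on the plus strand at chr7:64756376-64756625). For Slc12a3 that start lies inside the annotated span of the gene, downstream of its outermost start. Capitals mark matches on either strand to the core promoter strings TATAAA and CCAAT. The half-sites AGGTCA and also AGTTCA, of the kind that nuclear receptors such as Vdr bind, were searched too.
Slc12a3: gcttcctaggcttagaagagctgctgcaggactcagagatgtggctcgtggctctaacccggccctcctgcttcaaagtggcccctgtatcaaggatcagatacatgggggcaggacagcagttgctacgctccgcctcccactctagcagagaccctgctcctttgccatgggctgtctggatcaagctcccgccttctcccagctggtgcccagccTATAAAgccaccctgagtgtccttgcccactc
Cyp27b1: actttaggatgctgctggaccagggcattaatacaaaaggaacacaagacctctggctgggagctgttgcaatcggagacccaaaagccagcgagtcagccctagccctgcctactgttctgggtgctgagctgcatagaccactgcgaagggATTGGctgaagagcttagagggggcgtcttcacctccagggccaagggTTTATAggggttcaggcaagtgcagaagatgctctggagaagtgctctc
In Slc12a3 TATAAA runs from position -32 to -27, counted from that internal start. In Cyp27b1 CCAAT is read on the opposite strand from -97 to -93 (ATTGG) and TATAAA on the opposite strand from -49 to -44 (TTTATA). Entries were matched for 8 of the 10 member genes, 10 promoters in all since a gene can have several starts. Calb1 and Cyp24a1 had no entry, so their promoters were not searched and the counts that follow do not cover them. Of these 10, 3 held CCAAT and 2 held TATAAA, beside 34.0% and 12.9% of all 33469 promoters, and 0 held AGGTCA or AGTTCA, beside 14.1% and 12.2%. Other variants of such half-sites were not searched, so the count of 0 does not show that these promoters lack a half-site for Vdr. A match is a string of letters and not a shown binding site, and these counts say nothing of the factors themselves.

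Trpv5, the apical channel through which calcium enters distal cells, was read by 2 probes that were well above background on all 6 arrays. Probe A_64_P143825 gave -2.31, -2.05 and -2.45 in controls and -2.67, -2.17 and -2.51 in treated rats. Treated replicates 1 and 3 were below every control, and treated replicate 2 lay between control replicates 1 and 2. The means were -2.27 ± 0.20 (SD, n = 3) and -2.45 ± 0.26 (SD, n = 3), a difference of -0.18 (SE 0.16, 95% interval -0.58 to 0.22, limma adjusted p = 0.7). The other probe, A_44_P228928, gave -0.13 (SE 0.15), but ordered the rats differently: control replicate 3 was its highest array and treated replicate 2 its lowest. Within slide 1 the first probe differed by 0.02 and within slide 2 by -0.22.

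Calb1 encodes calbindin-D28k, the protein that carries calcium across the cell. Its probe gave 1.85, 2.01 and 2.41 in controls and 2.54, 2.22 and 2.29 in treated rats. All treated rats lay above control replicates 1 and 2, and control replicate 3 lay above 2 of the treated rats. The difference of 0.26 (SE 0.17, 95% interval -0.15 to 0.67, limma adjusted p = 0.588) came from means of 2.09 ± 0.29 (SD, n = 3) and 2.35 ± 0.17 (SD, n = 3). It was 0.29 within slide 1 and 0.13 within slide 2. It was 0.14 without control replicate 1, 0.16 without treated replicate 1 and 0.42 without control replicate 3. The probe of Pvalb, parvalbumin, another calcium-binding protein and a marker of the early distal convoluted tubule, was not well above background on any of the 6 arrays (-7.21, -7.11 and -6.23 in controls, -6.53, -6.76 and -6.33 in treated rats), so neither a level nor a difference is given for that gene.

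Slc8a1 encodes the sodium-calcium exchanger that passes calcium out of the cell on the blood side, and is also abundant in heart muscle. All 6 of its probes were well above background on every array. Probe A_44_P978398 gave -1.16, -0.59 and -1.06 in controls and -1.13, -0.81 and -1.12 in treated rats. Replicate 2 of each group stood above the others and the groups overlapped fully. The difference was -0.08 (SE 0.18, 95% interval -0.52 to 0.35, limma adjusted p = 0.881) between means of -0.94 ± 0.31 and -1.02 ± 0.19 (SD, n = 3 each). The other 5 probes ranged from -0.27 (SE 0.17) for A_44_P290391 to 0.01 (SE 0.26) for A_44_P323285, and the median over the 6 was -0.13. The order of the rats was shared between the probes: control replicate 2 was the highest control in 5 of 6, treated replicate 2 the highest treated rat in 6 of 6, and control replicate 1 the lowest control in 6 of 6. Both replicate 2 arrays lay on slide 1, and so did control replicate 1. Of the 4 heart muscle markers, Tnnt2 was well above background on 6 arrays, Nppa on 4 and Myh6 and Tnni3 on 1 each; their summed signal was 0.216 to 0.263 in controls and 0.226 to 0.256 in treated rats.

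The hormonal arm of the set begins with Kl, which encodes klotho, the co-receptor that lets the bone hormone FGF23 act on the kidney, and which also keeps Trpv5 at the cell surface. Probe A_64_P041134 gave 2.08, 1.98 and 1.92 in controls and 2.01, 2.04 and 1.91 in treated rats, and probe A_43_P12558 gave 1.80, 1.81 and 1.79 against 1.87, 1.89 and 1.78. The groups overlapped at both probes. The differences were -0.0056 (SE 0.079, 95% interval -0.20 to 0.19, limma adjusted p = 0.985), which is positive at 0.018 with quantile normalization, and 0.043 (SE 0.067, 95% interval -0.12 to 0.21, limma adjusted p = 0.833). The second probe had the smallest SD over the controls of any member probe, 0.0076, below those of all but 0.26% of the probes tested.

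Vdr, the nuclear receptor through which calcitriol acts, was read by 2 probes. Probe A_64_P149930 gave -0.17, 0.41 and 0.08 in controls and -0.25, -0.08 and 0.13 in treated rats. Control replicate 2 was the highest and treated replicate 1 the lowest, with the others mixed. The difference was -0.18 (SE 0.17, 95% interval -0.60 to 0.24, limma adjusted p = 0.72) between means of 0.11 ± 0.29 and -0.07 ± 0.19 (SD, n = 3 each). At A_44_P276492 it was -0.0096 (SE 0.12), and there too control replicate 2 was highest and treated replicate 1 lowest.

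Cyp27b1, the mitochondrial enzyme that turns the circulating precursor of vitamin D into calcitriol, had the largest group difference. Its probe gave 0.57, 0.30 and 0.25 in control replicates 1 to 3 and 2.23, 0.99 and 0.59 in treated replicates 1 to 3. Treated replicate 1 stood 3.62-fold above the control mean and treated replicate 2 1.54-fold, while treated replicate 3 exceeded control replicate 1 by 0.02 on the log2 scale, which is all that kept the groups apart. The means were 0.37 ± 0.17 (SD, n = 3) and 1.27 ± 0.85 (SD, n = 3). The difference of 0.90 (SE 0.41, 95% interval -0.10 to 1.90) did not pass (limma adjusted p = 0.474). Treated rats were higher without overlap for 7.57% of all probes tested. The difference was 1.17 with a fixed slide effect, 0.56 within slide 1 and 1.98 within slide 2. It was 0.42 without treated replicate 1 (limma adjusted p = 0.557) and 0.84 to 1.24 without any 1 of the other arrays. Treated replicate 1, the array highest for Cyp27b1, also had the highest summed signal of liver transcripts (57.5, against at most 26.8 elsewhere); the part of those transcripts in the result was not tested.

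Cyp24a1 encodes the enzyme that breaks down calcitriol and is itself a classical target of Vdr. Probe A_43_P19543 gave 1.10, 1.74 and 1.20 in controls and 0.02, 1.01 and 2.24 in treated rats. Probe A_64_P139422 gave -1.32, -0.75 and -1.09 in controls and -2.19, -1.26 and 0.27 in treated rats. At both probes treated replicate 1 was the lowest of the 6 rats and treated replicate 3 the highest, on either side of all controls. The probes ordered the treated rats alike. Relative to the control mean, treated replicate 1 stood 2.51-fold lower and treated replicate 3 1.85-fold higher at the first probe, and 2.19-fold lower and 2.51-fold higher at the second.

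Since the treated rats lay on both sides of the controls, the group differences of Cyp24a1 were small beside their errors. They were -0.26 (SE 0.55, 95% interval -1.59 to 1.07, limma adjusted p = 0.88) for A_43_P19543 and -0.0026 (SE 0.60, 95% interval -1.46 to 1.45, limma adjusted p = 0.999) for A_64_P139422; the latter was 0.054 with normexp background correction. Without treated replicate 1 both differences turned positive, at 0.28 and 0.56, and without treated replicate 3 they were -0.83 and -0.67. The difference of A_64_P139422, near 0, also turned positive without control replicate 2 (0.15) or treated replicate 2 (0.097). With a fixed slide effect they were -0.74 and -0.60, within slide 1 -0.41 and -0.22, and within slide 2 -1.18 and -1.10. Slide 2 held control replicate 3 and treated replicate 1, and treated replicate 3 lay alone on slide 3, so the slide fit takes no account of that rat.

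The enzymes of synthesis and breakdown were thus found in opposite order among the treated rats. Treated replicate 1 was highest for Cyp27b1 and lowest for Cyp24a1, treated replicate 2 was in the middle for both, and treated replicate 3 was lowest for Cyp27b1 and highest for Cyp24a1. Among the controls, replicate 1 was highest for Cyp27b1 and lowest for Cyp24a1 at both probes, but replicate 3, lowest for Cyp27b1, was in the middle for Cyp24a1. This is an order among 3 rats a group, noticed in the values, and it was not tested. Each treated rat also lay on a different slide. The levels of Vdr and Kl did not spread in the same way: over the treated rats they spanned 0.37 and 0.27 for the Vdr probes and 0.13 and 0.10 for the Kl probes, against 2.21 and 2.46 for Cyp24a1 and 1.64 for Cyp27b1.

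**Figure D3:**
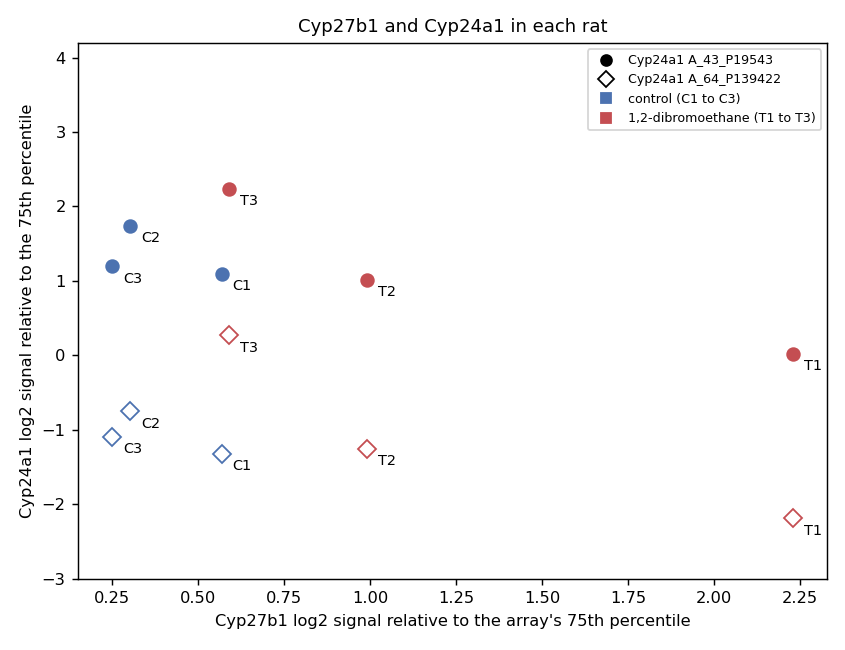
Log2 signal of Cyp27b1 (x axis) against that of the 2 Cyp24a1 probes (y axis; filled circles and open diamonds), 1 pair of points per rat, with controls in blue (C1 to C3) and treated rats in red (T1 to T3). T1 lies at the right and at the bottom for both probes, T3 lies highest, and the controls sit between 0.25 and 0.57 on the x axis.

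The spread between rats was wide for these enzymes in the treated group. The SD over the 3 treated rats was 1.11 and 1.24 for the Cyp24a1 probes and 0.85 for Cyp27b1, where the median over all probes tested was 0.13 and the 95th percentile 0.56. Over the 3 controls it was 0.35, 0.29 and 0.17, below the 95th percentile of 0.49 for controls. For the other 16 tested member probes the SD over treated rats was between 0.056 and 0.36. No test of spread was made, and with 3 rats each SD rests on few values. Each treated rat lay on a different slide, whereas control replicates 1 and 2 shared slide 1. Differences between rats and between slides therefore cannot be told apart in the SD over treated rats. The thick ascending limb gene Umod, whose protein is secreted by the segment upstream, had its lowest level in treated replicate 3 (6.95, against 7.73 to 8.36 on the other arrays), the rat in which Cyp24a1 was highest. Slc12a1, the other marker of that segment, was also lowest there (3.60), as were Cldn16 (-2.03) and Casr (3.13), described below. The summed signal of the thick ascending limb markers was 315.4 to 340.9 in controls. It was 229.7, 351.3 and 135.3 in treated replicates 1, 2 and 3. The part of that segment in the results was not tested.

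**Figure D4:**
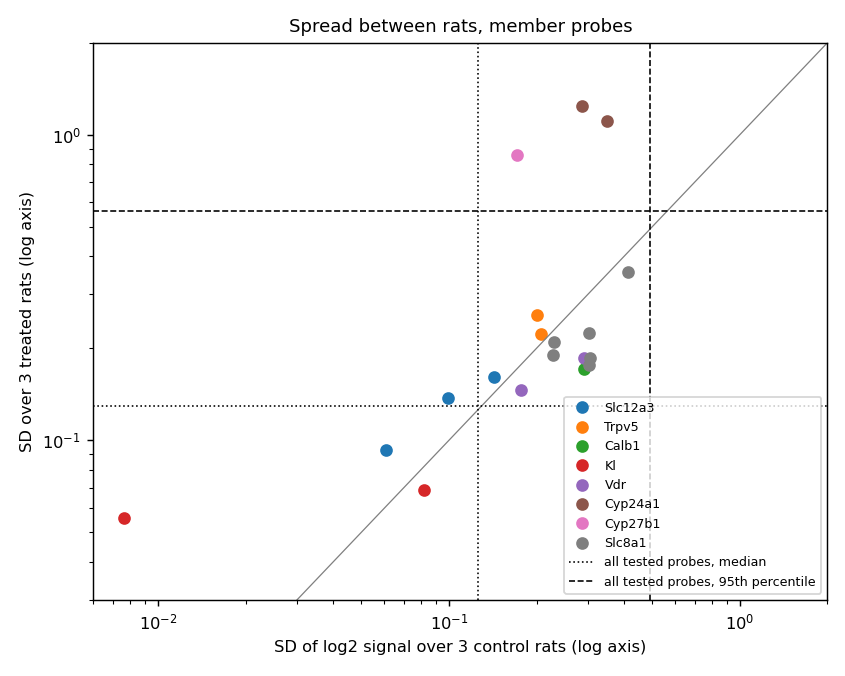
SD of the log2 signal over the 3 treated rats (y axis) against that over the 3 control rats (x axis), both on log axes, for the 19 tested member probes coloured by gene; dotted and dashed lines mark the median and the 95th percentile over all probes tested, and the grey line marks equal spread. Only the probes of Cyp24a1 and Cyp27b1 lie above the upper dashed line. Each treated rat lay on a different slide, so rat and slide cannot be told apart on the y axis.

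The Cyp24a1 probe A_64_P139422 had the largest SD over the 6 arrays of all member probes (0.81). Of 19721 tested probes with a symbol outside the set, the 5 genes nearest to its pattern, by the root mean square difference of log2 values centred over the 6 arrays, were Slc25a15, a mitochondrial ornithine carrier (0.28), Arhgap11a (0.33), Ptprc, the leukocyte antigen CD45 (0.36), Mapk6, an atypical MAP kinase (0.37), and Nr1d2, a nuclear receptor of the circadian clock (0.39). All 5 had their highest level in treated replicate 3, for example -1.56 for Ptprc against -3.05 to -2.60 on the other arrays. The Cyp24a1 probe was itself highest there, so this shared peak largely follows from how the genes were picked. Slc25a15 and Mapk6 were well above background on 4 and 5 of the 6 arrays. These are the smallest of many differences over 6 arrays and are given as a description.

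Genes around the members were taken from 4 lists of 49 genes in all, of which 47 had a probe and 44 were tested, each by its probe with the highest mean signal. In limma 0 of the 44 rose or fell at an adjusted p of 0.05, where 0.0268% of all probes passed. An unadjusted p under 0.05 was found for 9, where 11.3% of all probes had one. Trpv6, 1 of these 9, passed the filter on background only through the treated group, in which it was higher. In the list of salt transport in the distal convoluted tubule, 5 of 11 tested genes were positive, with a median difference of -0.06, beside -0.01 over all probes tested. Sgk1, the kinase induced by aldosterone and glucocorticoids that favours sodium uptake, gave 3.49, 3.33 and 3.07 in controls and 2.66, 2.27 and 2.16 in treated rats, with no overlap. Its difference of -0.93 (SE 0.17, limma adjusted p = 0.232) was -1.14 within slide 1 and -0.41 within slide 2. Oxsr1, a kinase that activates the cotransporter, stood at 0.18 (SE 0.08, limma adjusted p = 0.479).

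In the magnesium list 3 of 12 tested genes were positive, with a median of -0.09. Cldn16, the tight junction protein of the thick ascending limb through which magnesium and calcium pass between cells, gave -0.81, -0.99 and -1.10 in controls and -1.75, -1.29 and -2.03 in treated rats. The difference was -0.72 (SE 0.20, limma adjusted p = 0.355), -0.54 at its other probe, -0.39 within slide 1 and -0.65 within slide 2. Slc41a3, a magnesium transporter of the distal tubule, stood at -0.50 (SE 0.15, limma adjusted p = 0.363). Egf, which stimulates the magnesium channel, was at -0.07 (SE 0.19), with 0.03 at its other probe, and at 0.15 and 0.17 within slides 1 and 2.

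In the calcium list 4 of 7 tested genes were positive, with a median of 0.003. Atp2b1, a calcium pump of the plasma membrane, had a difference of -0.41 (SE 0.14, limma adjusted p = 0.392), and its other 3 probes gave -0.24, -0.21 and -0.28. Trpv6, the close relative of Trpv5, was well above background on every array but control replicate 1, and gave -5.43, -4.44 and -4.29 in controls and -3.64, -4.08 and -3.89 in treated rats. Its difference was 0.85 (SE 0.31, limma adjusted p = 0.411), 0.86 within slide 1 and 0.65 within slide 2. The slide 1 value includes control replicate 1, where Trpv6 was not well above background. Trpv6 passed the filter only through the treated group, in which it was higher. It is counted among the 4 positive genes, and its difference is given as a description only. Casr, the calcium-sensing receptor, stood at -0.44 (SE 0.18, limma adjusted p = 0.442), with -0.29 at its other probe. S100g, the small calbindin, was at 0.19 (SE 0.21) and the parathyroid hormone receptor gene Pth1r at -0.14 (SE 0.12), which was 0.11 within slide 1 and -0.29 within slide 2.

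In the vitamin D and phosphate list 9 of 14 tested genes were positive, with a median of 0.05. The phosphate transporter Slc20a2 stood at -0.32 (SE 0.08, limma adjusted p = 0.338) and its other 3 probes between -0.25 and -0.18. Cyp27a1, an enzyme of bile acid synthesis that can also hydroxylate vitamin D, stood at 0.29 (SE 0.09, limma adjusted p = 0.361). The FGF23 receptor gene Fgfr1 was at -0.10 (SE 0.11; 0.01 within slide 1 and -0.26 within slide 2) and Rxra, the partner of Vdr on DNA, at -0.06 (SE 0.10). Gc, the vitamin D carrier of plasma and a liver product, gave -1.38, 0.08 and -1.55 in controls and 0.61, -0.66 and -1.41 in treated rats. Its highest level was in treated replicate 1, as for the liver transcripts.

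**Figure D5:**
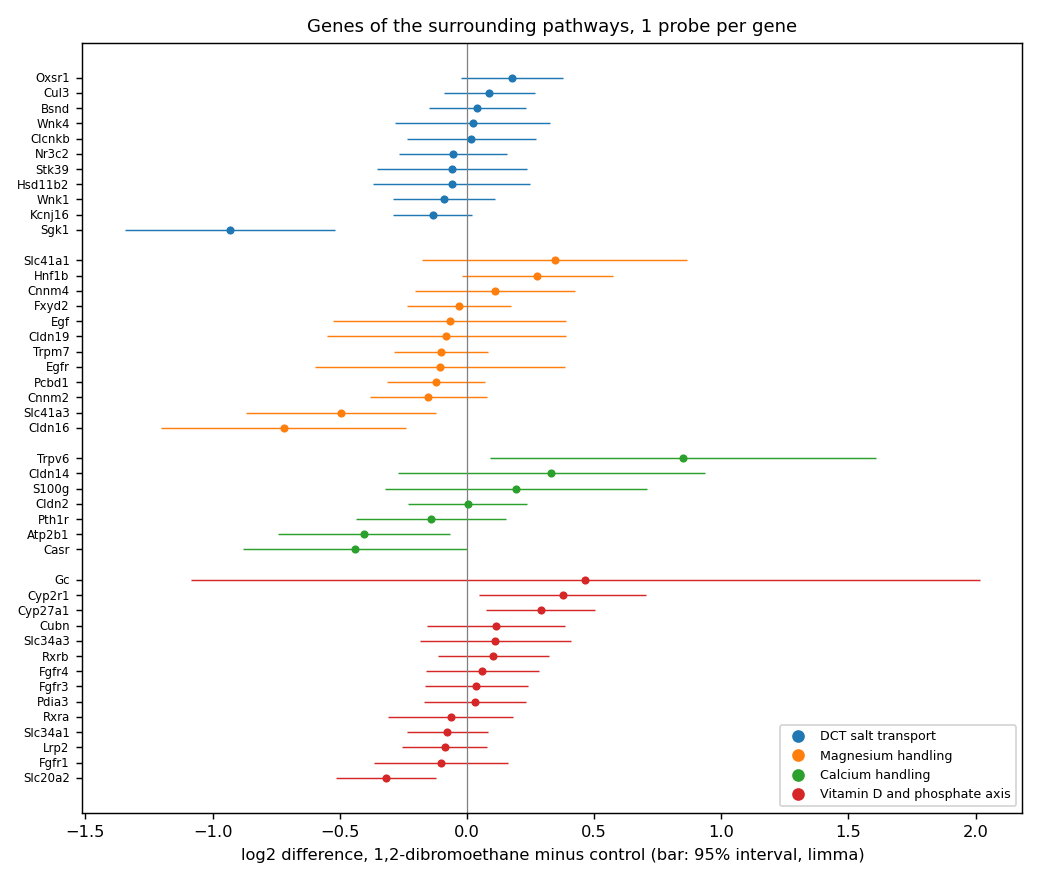
Difference between treated and control rats on the log2 scale with its 95% interval (limma), for the 44 tested genes of the 4 surrounding lists, coloured by list and ordered by size within each. Sgk1 (-0.93) and Cldn16 (-0.72) lie farthest below 0 and Trpv6 (0.85) farthest above it. Trpv6 passed the filter on background only through the treated group.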

How the data were processed

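Cy3-labelled RNA of each rat was hybridised to an Agilent array of design 045522 and read with Feature Extraction 10.7.1.1, per the file headers. The deposited intensity values are spot signals that this program had background-subtracted, per the file headers. A value table of the whole series was deposited too; its values, compared with these, are the same signals over the 75th percentile of the array (r = 1 in log2; medians 0.102 to 0.112; linear, not centred). Of 62976 spots per array, 1439 control spots and 84 spike-in probes were left out, and 1 to 11 outlier spots per array were set to missing. Accessions named 28206 of the 61453 probes through a RefSeq table of GRCr8; the files name rn4, so the only coordinates printed are those of the RefSeq promoter entries, in GRCr8.

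Here, log2 signals minus the array's 75th percentile were fitted probe by probe in limma 3.58.1 (lmFit, eBayes; R 4.3.3; two-sided). Benjamini-Hochberg adjustment ran over the 37274 probes for which 1 group or both had every array well above background (4 residual and 2.13 prior degrees of freedom). The fit was tested on simulated data. Slide 1 held control replicates 1 and 2 and treated replicate 2, slide 2 control replicate 3 and treated replicate 1, slide 3 treated replicate 3. The members and lists were chosen with earlier results of these data known. From the lists, the 2 genes with the smallest p each were named, with 7 partners of the members. Gc, Umod, Slc12a1 and the marker lists given gene by gene were chosen after their values were seen. Normexp used the median spot signal. Alternatives with scan day and this form of normexp were chosen after seeing the data.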

Additional observations from a re-analysis of the deposited data

How the results depend on the processing

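The count of changed member probes was 0 in limma under all alternatives run, those that leave out 1 array included. That of the pathway genes was 0 as well under those run for them, which were the same ones other than 1 probe per gene and the mean of a gene's probes. The smallest adjusted p of any member probe under any of them was 0.349 (Cyp27b1, slide as a random block). Apart from 4 probes with differences near 0, the signs held in all alternatives on the full set or the slides with both groups. Kl A_64_P041134 turned to 0.018 with quantile normalization, 0.046 with slide as a fixed block, 0.012 with slide as a random block and 0.046 when slide 3, which holds no control, was left out. Cyp24a1 A_64_P139422 turned to 0.054 with normexp, Slc8a1 A_44_P978398 to 0.0084 with slide as a fixed block and equally when slide 3 was left out, and Slc8a1 A_44_P323285 to -0.025 with median centring, -0.029 with normexp and -0.068 with array weights. Leaving out 1 array gave -0.042 to 0.039 for Kl A_64_P041134, -0.062 to 0.093 for Vdr A_44_P276492, -0.83 to 0.28 for Cyp24a1 A_43_P19543, -0.67 to 0.56 for Cyp24a1 A_64_P139422, -0.19 to 0.091 for Slc8a1 A_44_P978398 and -0.16 to 0.24 for Slc8a1 A_44_P323285. The mean of a gene's probes gave 0.90 for Cyp27b1 and -0.13 for Cyp24a1.

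Over all probes, 10 changed, 8 raised and 2 lowered. Changed, raised and lowered were 6, 6 and 0 with normexp, 1, 1 and 0 without a filter, 0, 0 and 0 with slide as a fixed block, without slide 3 and with the replicate block, and 2, 2 and 0 when scan day was blocked; trend and robust gave 20 changed and 9 lowered. Lowered were 4 with quantile normalization, 1 with median centring and 4 with slide as a random block. Without 1 array or another, the counts were 1 to 13 for changed, 1 to 11 for raised and 0 to 2 for lowered probes. Limma counted 4378 and 4452 probes at an unadjusted p under 0.05 with the slide and the replicate block, beside 4201 in the main fit. Both blocks leave fewer degrees of freedom. Why their adjusted counts were 0 was not tested. Same-numbered arrays deviated together at r = -0.20, 0.24 and 0.13, so the replicate numbers were not taken as pairs, and the replicate block changed no call of a member. Signal over background limits Pvalb, which has no difference here.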
